A study of Mus musculus with 54 samples.

Results

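The regions described here are autosomal 50 kb windows in which the 129 and Cas copies of the genome replicated at different times in mouse embryonic stem cells (ESCs) but at nearly the same time in neural precursor cells (NPCs) and mouse embryonic fibroblasts (MEFs). They were selected on their measured values. The allelic difference, 129 minus Cas, had to be at least 1 in size in the mean of 5 ESC lines grown in 2i medium, and below 0.3 in size in the mean of 2 NPC lines and in the mean of 4 MEF embryos. Of 43941 autosomal windows, 1024 met this rule, 51.2 Mb of sequence. The 129 allele was the earlier one in 614 of them and the Cas allele in 410. This split depends on scaling, since selection after centring each column on its median gave 520 and 464 windows, and after quantile normalization 602 and 442.

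Timing was measured by Repli-Seq. Replicating DNA is marked with a pulse of BrdU, the cells are sorted by DNA content, and the marked DNA of the early and of the late fraction is sequenced. The deposited value of each allele is the log ratio of early to late signal, so a higher value means earlier replication. The series holds 54 libraries, which form 27 profiles of F1 hybrid cells.

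NPCs were made from the ESC lines F121-9 (1 profile, female, 129 / cas) and Cas129 (2 profiles, female, cas / 129) and taken at day 11 of differentiation. Each of 4 cas / 129 embryos gave 2 MEF profiles, and the labels call embryos 1 and 2 female, 3 and 4 male. ESCs on a layer of inactivated feeder fibroblasts came from F121-6 and F121-9, with 2 profiles each. The 2i ESC lines were F121 (1 profile), F121-6, F121-9 and F123 (2 profiles each), all 129 / cas, and Cas129 (2 profiles, cas / 129). F123 is labelled male and the other 4 lines female. 2i is a serum-free medium with inhibitors of MEK and GSK3 and, here, LIF. An extraembryonic endoderm (XEN) line with C57B6 and cas parents (2 profiles, female) and the C57B6 / 129 ESC line V6.5 in 2i (1 profile, male) have other parents and entered no test. Each ESC line is 1 culture line, and the 2 feeder lines also have 2i profiles among those that selected the windows, so feeder profiles are other cultures of known lines and not new lines.

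The timing of a chromosome segment is set in domains, which replicate early where chromatin is open and genes are active and late in compact, gene-poor chromatin. Many domains switch timing as ESCs differentiate. In an F1 hybrid the 2 homologous chromosomes share 1 nucleus, so both copies are measured in the same cells.

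To show what kind of gene starts the strongest of these regions hold, the RefSeq promoters (GRCm38.p6, the assembly also called mm10, 250 bases before the start and 50 after) of 4 genes are printed 5′ to 3′ on the gene's strand, with each CpG in capitals. They are Gnpda2 (chr5:69592255-69592554, minus strand) and Col4a4 (chr1:82586800-82587099, minus strand), where the 129 allele was earlier in ESCs, and Map3k4 (chr17:12318611-12318910, minus strand) and Mgst2 (chr3:51660929-51661228, plus strand), where the Cas allele was earlier. They are reference sequence and hold no 129 or Cas variant.
Gnpda2: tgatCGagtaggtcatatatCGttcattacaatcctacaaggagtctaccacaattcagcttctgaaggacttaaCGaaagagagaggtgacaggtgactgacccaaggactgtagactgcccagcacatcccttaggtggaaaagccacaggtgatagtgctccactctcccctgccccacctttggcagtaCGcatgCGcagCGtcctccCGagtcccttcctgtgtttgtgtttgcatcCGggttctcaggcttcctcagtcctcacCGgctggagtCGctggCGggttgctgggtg
Col4a4: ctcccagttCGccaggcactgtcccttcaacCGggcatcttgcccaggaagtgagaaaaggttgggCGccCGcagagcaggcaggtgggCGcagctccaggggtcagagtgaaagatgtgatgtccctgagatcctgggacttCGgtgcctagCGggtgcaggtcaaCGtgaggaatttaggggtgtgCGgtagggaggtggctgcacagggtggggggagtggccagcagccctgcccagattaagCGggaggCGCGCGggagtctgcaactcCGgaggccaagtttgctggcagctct
Map3k4: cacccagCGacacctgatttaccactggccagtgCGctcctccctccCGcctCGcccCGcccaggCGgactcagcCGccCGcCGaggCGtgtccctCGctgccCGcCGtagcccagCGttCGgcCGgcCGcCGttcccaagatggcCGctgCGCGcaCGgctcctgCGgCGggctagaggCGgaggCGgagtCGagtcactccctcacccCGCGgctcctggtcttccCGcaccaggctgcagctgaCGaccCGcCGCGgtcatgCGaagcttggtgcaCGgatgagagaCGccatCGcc
Mgst2: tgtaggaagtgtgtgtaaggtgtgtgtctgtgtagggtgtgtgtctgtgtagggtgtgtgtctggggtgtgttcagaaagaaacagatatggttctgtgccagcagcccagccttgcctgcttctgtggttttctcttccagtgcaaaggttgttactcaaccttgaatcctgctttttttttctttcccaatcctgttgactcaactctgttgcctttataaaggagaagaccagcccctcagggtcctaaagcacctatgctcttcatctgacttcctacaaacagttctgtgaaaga
Gnpda2, which encodes a glucosamine-6-phosphate deaminase, has 11 CpG in this window, and Col4a4, a collagen chain of basement membranes, has 14. Map3k4, a kinase of the stress-activated MAP kinase cascade, has 38, while Mgst2, a microsomal glutathione transferase, has 0. The 4 therefore run from a CpG island to a promoter without CpG.

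Over all selected windows, 254 RefSeq promoters had a median of 12.5 CpG, against 14 for the 17794 promoters of all autosomal windows. A promoter with 15 CpG or more made up 43.3% of the first and 49.9% of the second set. CG reads the same on both strands, so the count covers both. Gene starts were also thinner, with 0.219 protein-coding genes per selected window and 0.332 per window overall. A start lay in 18.5% of selected windows and in 24.4% of all windows. The other 2446 autosomal windows with an ESC difference of at least 1 had 0.207 genes per window and a start in 17.7%. Their promoters had a median of 9 CpG, and 40.8% had 15 CpG or more. Thin gene starts and fewer CpG were thus not particular to the selected windows. These counts describe the regions and were not tested, and they cover only genes that the promoter table lists.

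Before the results, 3 features of the files bear on them. The sex labels of MEF embryos 1 and 3 go against their X tracks, since in embryo 1 (labelled female) the 129 X had almost no timing pattern (SD of 0.25 and 0.30 along the X in its profiles), as in embryo 4 (male, 0.27 and 0.19), and in embryo 3 (labelled male) both X tracks varied, as in embryo 2 (female). Selecting without these embryos gave 966 windows in place of 1024. MEF and XEN columns had autosomal means near -0.15 and ESC, NPC and V6.5 columns near -0.60, so levels of timing between these sets depend on scaling. The allele columns of 1 profile can also be offset, as in F123, where the autosomal medians were -0.67 and -0.65 for 129 and -0.94 and -0.90 for Cas. Timing at marker genes went only in part with the cell types. Of 8 measured pluripotency genes, 7 were above 0 in NPCs, 6 in MEFs and 8 in 2i ESCs, with medians of 0.99, 1.36 and 2.38. Of 4 measured fibroblast genes, 1 was above 0 in NPCs, 3 in MEFs and 0 in 2i ESCs, and of 6 neural genes 4, 3 and 4 were. Zfp42, a pluripotency gene, had -3.77 in NPCs and -3.89 in MEFs, against 1.86 in 2i ESCs, but Pou5f1, another, had 3.23 in MEFs and 2.47 in 2i ESCs. The neural gene Olig2 had 1.63 in NPCs and 2.00 in MEFs, against 0.38 in 2i ESCs.

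The 1024 windows had a median ESC difference of 1.28 in size, with quartiles of 1.10 and 1.57 and a maximum of 3.18, against a median of 0.266 over all autosomal windows. These sizes follow from the selection, and so in large part does the sharing of a direction among lines. All 5 lines had the same allele earlier in 1015 of the 1024 windows, and the median SD over lines was 0.369, against 0.302 over all windows. Toward the allele that was earlier in the ESC mean, the median difference was 1.30 in F121, 1.43 in F121-6, 1.25 in F121-9, 1.40 in F123 and 1.26 in Cas129. Selection without 1 of the 5 lines kept between 900 (without F121-6) and 966 (without F121-9) of the 1024 windows.

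In NPCs and MEFs the rule limited only the means. Both NPC lines were below 0.5 in size in 925 windows (90.3%), and all 4 embryos were in 857 (83.7%). In 18 windows the NPC lines lay on opposite sides of 0 with both at least 0.5 in size, so there the small mean hides a difference in each line. Median differences toward the allele earlier in ESCs were 0.03 in F121-9 NPCs, 0.06 in Cas129 NPCs and between -0.02 and 0.02 in the embryos. The plot by line shows NPC and MEF boxes around 0.

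**Figure D1:**
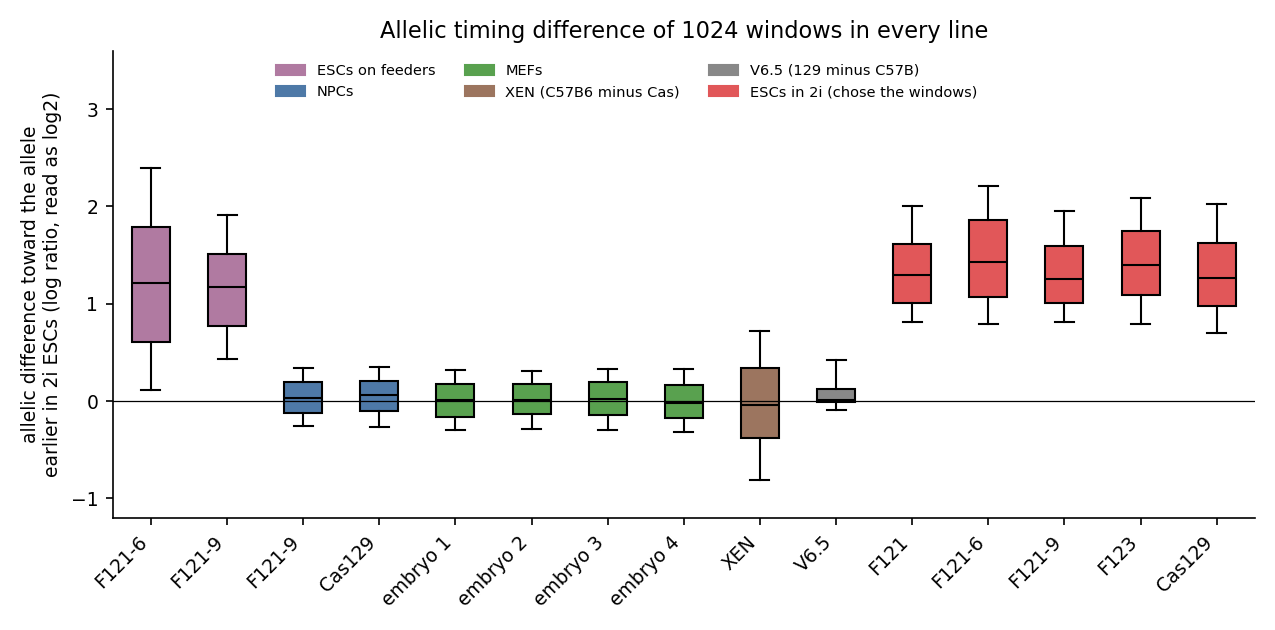
Allelic timing difference of the 1024 windows (vertical axis, log ratio, positive toward the allele that was earlier in 2i ESCs) in each line or embryo (horizontal axis); boxes span the quartiles with the median, and whiskers run between the 10th and 90th percentiles. Feeder ESCs have medians of 1.22 (F121-6) and 1.17 (F121-9), NPC lines, MEF embryos, XEN and V6.5 cells lie around 0, and the 2i ESC lines, which chose the windows, have medians of 1.25 to 1.43.

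The limits cut through a continuous range. The smallest selected ESC difference was -1.001 (chr8:48950001-49000000) and the largest one left out was -0.9999 (chr7:72750001-72800000), with 258 windows between 1.0 and 1.1 in size and 348 between 0.9 and 1.0. On the side of the other cells, the selected window nearest the limit had 0.2999 in MEFs (chr1:140600001-140650000), and the nearest one left out had -0.3002 (chr9:11350001-11400000). Of all autosomal windows 46.2% stayed below 0.3 in NPCs and MEFs, and of the 3470 windows with an ESC difference of at least 1 the share was 29.5%. The other 2446 had a difference of at least 0.3 in size, in either direction, in NPCs, in MEFs or in both.

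Neighbouring windows moved together. Joined where they had the same direction and at most 1 window was missing between them, the 1024 windows formed 339 runs, 194 with 129 earlier and 145 with Cas earlier. Of these, 114 were single windows and 152 had at least 3 windows, which took in 764 of the 1024. The median run had 2 windows, 10 runs had at least 10, and the longest had 22. In 35 of the 152 runs no named protein-coding gene overlapped. By chromosome, the share of windows selected was highest on chromosome 17 (4.19%, 67 of 1598) and chromosome 13 (3.73%) and lowest on chromosome 18 (1.34%) and chromosome 12 (1.43%). Chromosome 3 held the most, 92.

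The largest difference with an earlier 129 allele lay at Eps8, which encodes an adaptor of receptor signalling to actin, and Ptpro, a receptor tyrosine phosphatase (chr6:137400001-137650000, 4 windows). The run had 0.07 and -0.07 in the NPC lines, -0.03, -0.13, -0.15 and -0.12 in the embryos, and 2.96 in F121, 3.64 in F121-6, 2.65 in F121-9, 2.59 in F123 and 3.24 in Cas129 ESCs. In ESCs the 129 copy was early (1.08) and the Cas copy late (-1.94). Both NPC copies lay between them (-0.75 each), and both MEF copies were about as early as the ESC 129 copy (1.13 for 129 and 1.24 for Cas). Its window of largest difference (chr6:137600001-137650000) had 2.98, 3.36, 2.73, 3.25 and 3.57 in the same order of lines. Next to it lay Slc15a5, of the family of peptide transporters (chr6:137850001-138050000), with 2.40 ± 0.57 (SD, n = 5 lines). There the NPC lines stood apart from each other, F121-9 at -0.63 and Cas129 at 0.23, so the NPC mean of -0.20 does not describe either line.

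Other runs with a large 129-earlier difference were smaller than that of Eps8. Dsg1c, a desmosomal cadherin (chr18:20150001-20300000), had 1.85 ± 0.38 (SD, n = 5 lines). At Col4a3 and Col4a4, 2 chains of basement membrane collagen, and Mff, a mitochondrial fission factor (chr1:82550001-82750000), the difference was 1.80 ± 0.21. Both copies there were later in NPCs (-1.75 for 129 and -1.87 for Cas) and earlier in MEFs (1.76 and 1.87) than both copies in ESCs (0.35 and -1.45). The run of Yipf7, Guf1 and Gnpda2 (chr5:69250001-69700000, 9 windows, 2.06 ± 0.55) was late throughout, at -3.90 and -3.92 in NPCs and -3.59 and -3.58 in MEFs, against -1.72 for 129 and -3.78 for Cas in ESCs.

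A long 129-earlier run covered St8sia6, Vim and Trdmt1 (chr2:13250001-14000000, 14 windows, 1.46 ± 0.35). Vim encodes the intermediate filament vimentin of fibroblasts. At Depdc1b, the fatty acid elongase gene Elovl7 and the repair gene Ercc8 (chr13:108100001-108650000, 10 windows) the difference was 1.74 ± 0.41. Lonrf2, the sulfotransferase gene Chst10 and Nms, which encodes neuromedin S (chr1:38350001-38950000, 12 windows), had 1.67 ± 0.15. Both its copies were early in NPCs (1.41 and 1.54) and in MEFs (2.21 and 2.12), against -0.04 for 129 and -1.70 for Cas in ESCs. Arhgef28, a guanine nucleotide exchange factor of small GTPases (chr13:97400001-98000000, 12 windows, 1.45 ± 0.23), was early for both copies in every cell type, with 2.25 for 129 and 0.80 for Cas in ESCs.

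The longest run of all had an earlier Cas allele. It spanned 22 windows with Map3k4, the acyltransferase gene Agpat4 and the plasminogen gene Plg (chr17:11450001-12550000). The values were 0.03 and -0.04 in the NPC lines, 0.06, 0.16, 0.17 and 0.25 in the embryos, and, over ESC lines in the order used above, -2.45, -1.82, -1.90, -2.61 and -2.25. The Cas copy was early in ESCs (1.41) and the 129 copy was not (-0.80), and NPCs had 0.97 for both. Its last window (chr17:12500001-12550000) holds the start of Slc22a3, an organic cation transporter known to be imprinted in mouse placenta, with 0.14 in NPCs and 0.18 in MEFs, against -1.33 ± 0.28 in ESCs. Cas129, the line of the opposite cross, had -1.28 there and the other lines had -1.77 to -0.998. These values were among those that chose the window, and line and cross cannot be told apart. The most extreme window of the direction, chr17:12250001-12300000, had -3.84, -2.76, -2.56, -3.11 and -2.68 in the 5 lines.

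At Maml3, a coactivator of Notch signalling, Mgst2 and the lysine methyltransferase gene Setd7 (chr3:51550001-52000000, 9 windows) the difference was -2.20 ± 0.22. Both copies were early in NPCs (2.42 for 129 and 2.47 for Cas) and in MEFs (2.23 and 2.40), against -0.52 for 129 and 1.68 for Cas in ESCs. Syne1, a protein of the nuclear envelope, and Myct1 (chr10:5400001-5600000) had -2.02 ± 0.53, and both copies were late in NPCs (-2.04 and -1.90). Rab17, a small GTPase of epithelial cells, Prlh and Lrrfip1 (chr1:90950001-91100000) had -1.99 ± 0.30. Fam241a, Ap1ar and the TRAF adaptor gene Tifa (chr3:127750001-127900000) had -2.10 ± 0.41. Sis, the intestinal sucrase-isomaltase, and Slitrk3, a synaptic adhesion protein (chr3:72750001-73200000), had -1.95 ± 0.45. Msrb3 and Lemd3, a protein of the inner nuclear membrane (chr10:120550001-120950000), had -1.84 ± 0.18. Plcl2 and Tbc1d5 (chr17:50300001-50950000, 13 windows, -1.48 ± 0.17) and Fhit, whose human gene spans a common fragile site (chr14:10150001-10600000, 9 windows, -1.43 ± 0.30), were further runs named for size or length, together with a stretch without a named gene in each direction (chr6:60350001-60500000, 2.13 ± 0.61, and chr13:87050001-87200000, -2.24 ± 0.29).

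**Figure D2:**
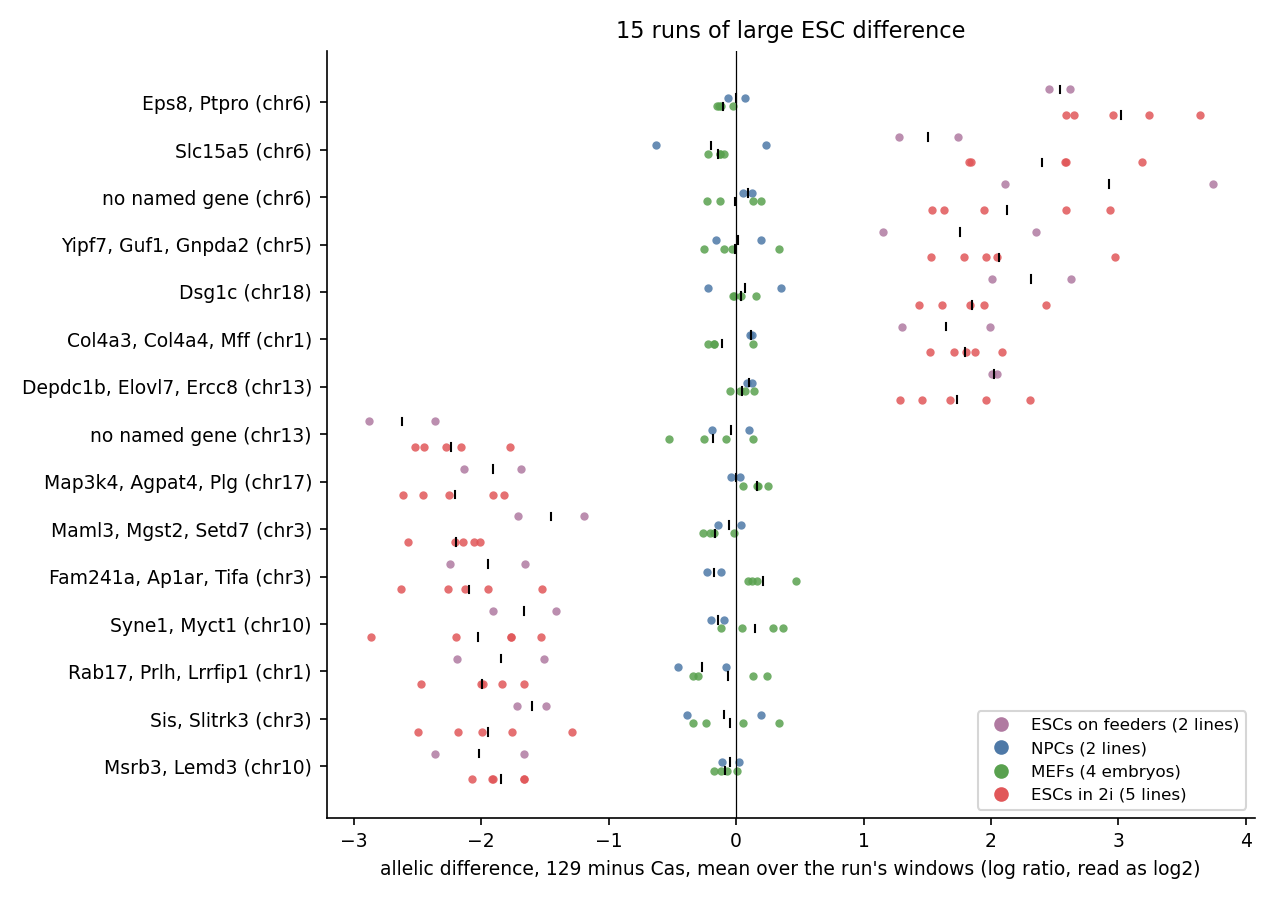
Allelic difference, 129 minus Cas (horizontal axis, log ratio), of 15 runs of at least 3 windows with a large ESC difference, 7 with 129 earlier and 8 with Cas earlier (vertical axis); points are lines or embryos and black ticks are means. NPC and MEF points lie around 0 while feeder and 2i ESC points lie on 1 side, and at Slc15a5 the NPC lines stand apart at -0.63 and 0.23.

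The profile across a run showed where the copies separate. At Maml3 and Setd7 the ESC copies lay close to each other at 500 kb before the centre of the run (2.52 for 129 and 2.78 for Cas) and at 850 kb after it (-1.42 and -1.35). In the selected windows between, the NPC copies had 1.97 to 2.99 and the MEF copies 1.67 to 3.26. At 950 kb before the centre the ESC copies were apart again, with 129 earlier (-1.72 and -2.38), and there NPC copies were late (-1.25 and -1.34). At Kcnt2, a sodium-activated potassium channel gene (chr1:140400001-140650000, 1.57 ± 0.24), the Cas copy was the later one in ESCs up to 600 kb after the centre (-3.52 for 129 and -3.93 for Cas), and the 129 copy from 650 kb on (-3.86 and -3.72). In the selected windows NPC copies (-3.72 for 129 and -3.91 for Cas) and MEF copies (-3.06 and -3.36) were later than both ESC copies (-0.10 and -1.66).

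**Figure D3:**
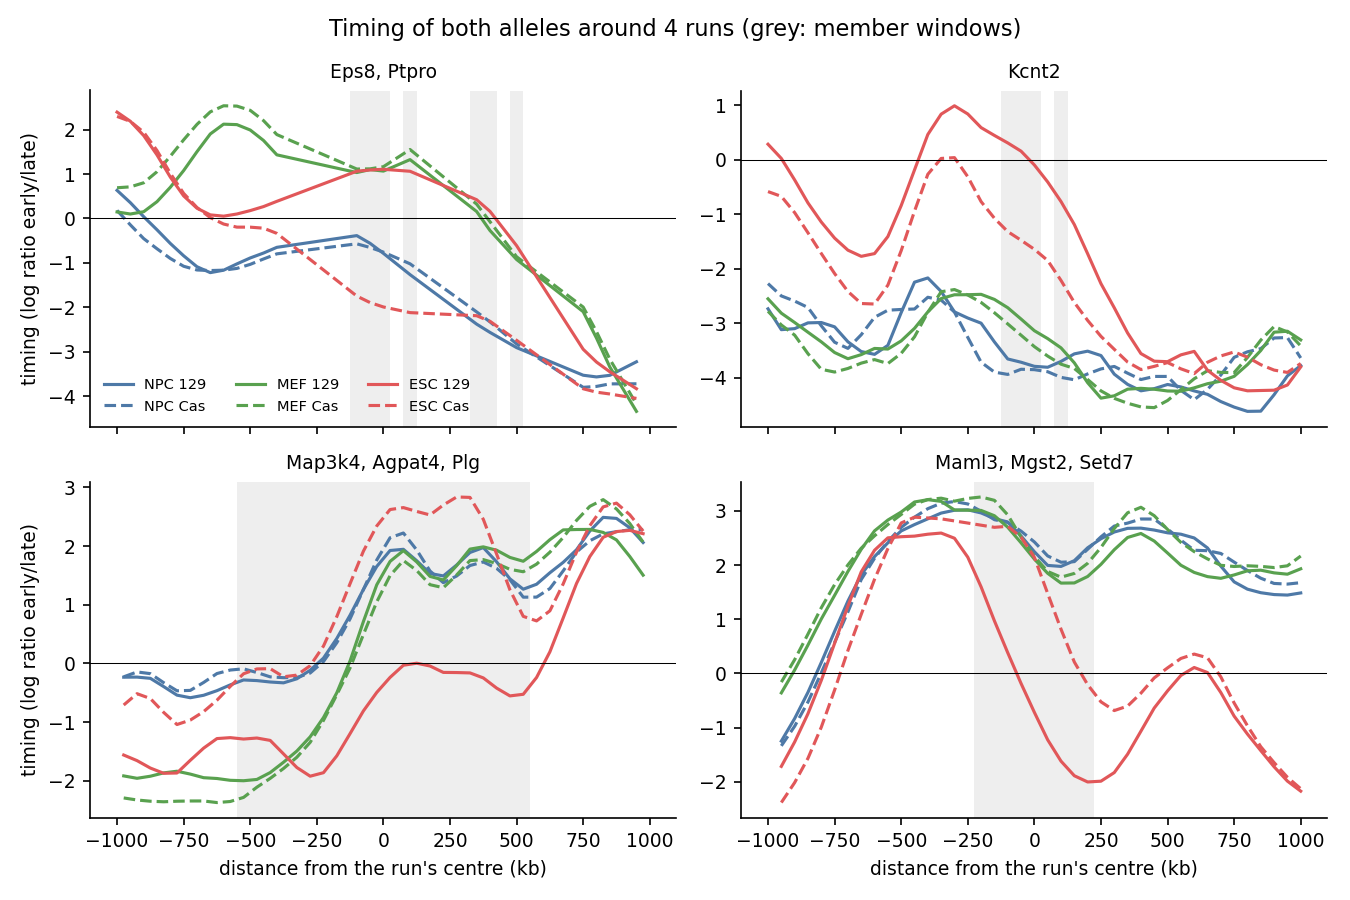
Timing of the 129 copy (solid) and the Cas copy (dashed) in NPCs, MEFs and 2i ESCs (vertical axis, log ratio of early to late, means over lines or embryos) by distance from the run's centre in kb (horizontal axis); grey bands are selected windows. At Eps8 and Ptpro the ESC copies have run means of 1.08 (129) and -1.94 (Cas), and at Map3k4 -0.80 and 1.41.

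The first comparison asked whether the differences were also there in ESCs on feeders, which the rule did not use. They were in most windows. Of the 1024 windows, 793 (77.4%) were called between alleles, against 24.2% of all autosomal windows (limma with Benjamini-Hochberg adjustment over all windows, adjusted p under 0.05 and a size of at least 0.5). All 793 had the same allele earlier as in 2i. Of the 614 windows with 129 earlier in 2i, 472 were called that way, where 12.1% of all windows were, and of the 410 with Cas earlier, 321 were, where 12.1% of all windows were. At an unadjusted p under 0.05 the count was 859 (83.9%), against 36.1% of all windows. The share was close to that of the other 2446 windows with an ESC difference of at least 1, 81.3%.

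Per line, the feeder difference toward the allele earlier in 2i had a median of 1.22 in F121-6 and 1.17 in F121-9, and 1.19 in their mean. The same lines had 1.35 in 2i, where selection had acted on the values. In F121-6 on feeders 807 windows (78.8%) had at least 0.5 in the same direction and 18 had it in the opposite direction. In F121-9 these were 894 (87.3%) and 7. Over all windows, 47.8% in F121-6 and 35.6% in F121-9 on feeders reached 0.5 in size in either direction. Of the other 2446 windows, 82.2% and 90.9% had at least 0.5 in the 2i direction. A feeder mean on the other side of 0 was found in 31 windows, and 633 had at least 1 in the 2i direction. Both counts are given for the selected windows only.

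At Eps8 and Ptpro all 4 windows were called, with 2.46 in F121-6 and 2.62 in F121-9 on feeders, and a difference of 2.79 ± 0.19 (SE, adjusted p = 1.16e-06 by limma) in the window that was largest in 2i. Map3k4, Agpat4 and Plg had 20 of 22 windows called (-2.14 and -1.68), and Maml3, Mgst2 and Setd7 7 of 9 (-1.19 and -1.71). Dsg1c reached 2.32 on feeders with 2.92 ± 0.23 in its largest window (SE, adjusted p = 3.37e-06 by limma). The run without a named gene on chromosome 6 (chr6:60350001-60500000) had 3.74 and 2.11, a feeder mean of 2.93. Of the 152 runs with at least 3 windows, 90 had every window called.

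In 20 of the 152 runs no window was called on feeders, and 87 of the 1024 windows were below 0.3 in size there. Whether feeder and 2i values differ was not tested, since the 2i values chose the windows. Prr5l, a partner of mTORC2, Commd9 and the ubiquitin ligase gene Traf6 (chr2:101600001-101900000, 6 windows) had 0.05 in F121-6 and -0.17 in F121-9 on feeders, against 1.70 and 0.67 in the same lines in 2i. At Usp47, a deubiquitinase gene, and the Dickkopf gene Dkk3 (chr7:112000001-112150000) the feeder values were -0.35 and 0.67, against 1.26 and 1.33. Ccn4, Ndrg1 and the thyroglobulin gene Tg (chr15:66650001-66950000) had 0.19 and 0.44, against 1.60 and 1.14, with 1 of 6 windows called. Fhit had 8 of 9 windows called, but not the window that was largest in 2i (-0.61 ± 0.27 SE, adjusted p = 0.118 by limma). Among runs singled out after their values were seen, Lsamp, a neural adhesion gene (chr16:41550001-41750000), had opposite signs in the feeder lines, 1.50 in F121-6 and -1.19 in F121-9, against 1.04 and 1.34 in 2i.

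**Figure D4:**
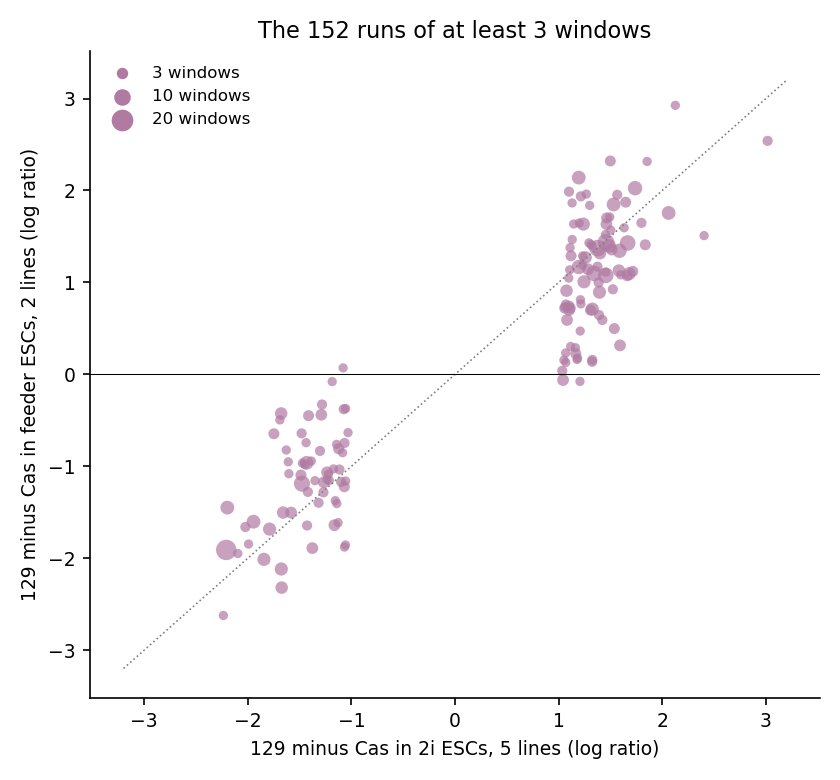
Allelic difference, 129 minus Cas, of the 152 runs of at least 3 windows in feeder ESCs (vertical axis, mean of 2 lines) against 2i ESCs (horizontal axis, mean of 5 lines), with point area growing with the number of windows; the dotted line marks equal values. Runs lie in the lower left and upper right, 3 runs have a feeder mean on the other side of 0 (-0.08 to 0.07), and no point lies between -1 and 1 on the horizontal axis because of the selection.

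The next comparison set the direction of the cross beside the differences, using the same 2i ESC values that chose the windows. Cas129 is the 1 ESC line with the cas / 129 label, so line and cross cannot be told apart, and the fit assumes that it varies like the other lines. No selected window was called between Cas129 and the 4 lines of the other cross, where 0% of all windows were called by limma. With no call in any window, the count says nothing on whether the differences depend on the cross, and the values that follow are a description. At an unadjusted p under 0.05 there were 119 selected windows (11.6%), against 5.26% of all windows. A contrast of at least 1 in size was found in 4.59% of selected windows and in 2.09% of all windows, and its median size of 0.319 was below its median SE of 0.344. The smallest adjusted p among the selected windows was 0.418. That window, chr18:14900001-14950000, chosen after its values were seen, had 2.96 in Cas129 and 1.50, 1.04, 1.23 and 1.40 in F121, F121-6, F121-9 and F123. The difference was 1.67 ± 0.29 (SE), with Cas129 above the range of the other lines.

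Timing itself, the mean of both copies, is a measure the rule did not use. It is bounded by it in ESCs, since 2 copies that differ by 1 or more cannot both lie at the same extreme. In ESCs the median timing of the selected windows was -1.20, with quartiles of -2.33 and 0.02, against a median of -0.66 and quartiles of -2.89 and 1.66 over all windows. In NPCs the median was -1.34 and the quartiles -2.71 and 0.43, and in MEFs they were -0.41, -2.48 and 1.50. The ESC copies had medians of -0.48 (earlier copy) and -1.91 (later copy). In 619 windows (60.4%) both ESC copies were below 0, in 260 (25.4%) the copies lay on either side of 0, and in 145 (14.2%) both were above it. NPC timing was above 0 in 8.08%, 46.9% and 89.7% of these 3 groups, in that order.

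NPCs differed from 2i ESCs in timing in 438 selected windows (42.8%), against 32.6% of all windows (limma, adjusted p under 0.05 and a size of at least 1). Later timing in NPCs was called in 233 (22.8%), where 16.2% of all windows were, and earlier timing in 205 (20%), where 16.4% were. The median change was -0.12 in the selected windows and 0.04 over all. Large changes thus went both ways. Of the other 2446 windows with an ESC difference of at least 1, 45.8% were called, 30.4% later and 15.4% earlier in NPCs, and their difference from the selected windows was not tested.

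The runs with the largest change toward late in NPCs were Kcnt2, Fbxo5 with Mtrf1l and Rgs17, Abra with Oxr1, and the run without a gene on chromosome 6. At Kcnt2 timing was -3.75 and -3.88 in F121-9 and Cas129 NPCs, against -1.14 in F121, -0.37 in F121-6, -0.88 in F121-9, -0.91 in F123 and -1.10 in Cas129 ESCs. NPC and ESC lines did not overlap there, and the change was -3.12 ± 0.24 (SE, adjusted p = 4.77e-08 by limma) in the window of largest ESC difference. Fbxo5, which encodes the inhibitor Emi1 of the anaphase-promoting complex (chr10:5700001-5850000, -1.21 ± 0.34 between ESC copies), had -1.90 and -1.54 in NPCs, against 0.47 to 1.65 in ESCs. Abra, an actin-binding protein, and Oxr1, an oxidation resistance gene (chr15:41850001-42000000, 1.27 ± 0.15), had -2.03 and -2.07, against -0.33 to 1.19.

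Toward early in NPCs the largest changes lay at Dgki, a diacylglycerol kinase gene of neurons (chr6:36900001-37050000), in a stretch without a named gene (chr13:78900001-79050000), at Prr5l, Commd9 and Traf6, and at Stx6, Mr1 and Ier5 (chr1:154950001-155200000). Dgki had 1.36 and 1.02 in NPC lines, against -1.30, -1.34, -1.59, -1.36 and -1.09 in the ESC lines in that order, a change of 2.00 ± 0.20 in the window of largest ESC difference (SE, adjusted p = 7.31e-07 by limma). The stretch on chromosome 13 had -0.37 and -0.33 in NPCs, against -3.28 to -2.62 in ESCs, and was late in MEFs as well (-2.27). Stx6, a syntaxin of the trans-Golgi network, and Mr1, an antigen-presenting protein, had 2.52 and 2.69, against -0.52 to 0.36.

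MEFs differed from 2i ESCs in 606 selected windows (59.2%), against 44.3% of all windows by the same thresholds. Later timing in MEFs was called in 210 (20.5%), where 13.9% of all windows were, and earlier timing in 396 (38.7%), where 30.4% were. Of the other 2446 windows, 53.3% were called, 20.4% later and 32.9% earlier in MEFs. This split depends on scaling, since the median MEF minus ESC difference of all windows was 0.38 as deposited, -0.25 after centring each column on its median and -0.05 after quantile normalization. After centring, 351 selected windows were later (background 27.7%) and 299 earlier (18.9%), and after quantile normalization 309 (22.1%) and 316 (20.6%). Relative to the shift of all windows, the selected windows had a median of 0.46 against 0.38 as deposited. After centring these medians were -0.16 and -0.25, and after quantile normalization -0.07 and -0.05.

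The largest MEF changes far exceeded these shifts. Ccn4, a secreted matricellular protein, with Ndrg1 and Tg had 3.09, 3.38, 3.41 and 3.43 in embryos 1 to 4, against -1.23 in F121, -1.54 in F121-6, -1.25 in F121-9, -1.32 in F123 and -1.90 in Cas129 ESCs, and 4.06 ± 0.30 in the window of largest ESC difference (SE, adjusted p = 4.23e-09 by limma). Usp47 and Dkk3 had 3.46 to 3.73, against -0.80 to -0.28, and 2 stretches without a named gene moved the same way, chr9:116200001-116350000 (2.94 to 3.24, against -1.59 to -0.32) and chr7:72600001-72750000 (1.86 to 2.12, against -2.47 to -1.35). Later in MEFs were the stretch on chromosome 6 from 60350001 (-4.21 to -4.04, against -1.81 to -0.28), Kcnt2 (-3.34 to -3.11), chr2:178600001-178750000 (-2.77 to -2.42, against -0.38 to 0.10) and chr10:46600001-46850000 (-4.28 to -3.90, against -1.98 to -1.20). The embryos lay apart from all ESC lines in each of these runs.

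Beside the 2 ESC copies, the common timing in NPCs was earlier than both in 303 windows (29.6%), between them in 391 (38.2%) and later than both in 330 (32.2%). In MEFs these counts were 460, 294 and 270 as deposited, and 351, 261 and 412 after median centring. In XEN cells they were 467, 324 and 233, and 313, 305 and 406. The NPC counts changed little with centring, to 301, 395 and 328. NPCs and MEFs were both earlier than both ESC copies in 235 windows, both later in 180 and both between in 153. In 65 windows NPCs were later than both ESC copies and MEFs earlier than both, as at Col4a3 and Col4a4, and in 12 the reverse held. None of the counts in this comparison was made over all windows or over the other 2446. It cannot be said whether they are particular to the selected windows. The rule's gap of at least 1 between the ESC copies also bears on the share between them. NPC timing was nearer to the earlier ESC copy in 491 of 1024 windows (47.9%), so neither ESC copy was the usual one to match.

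**Figure D5:**
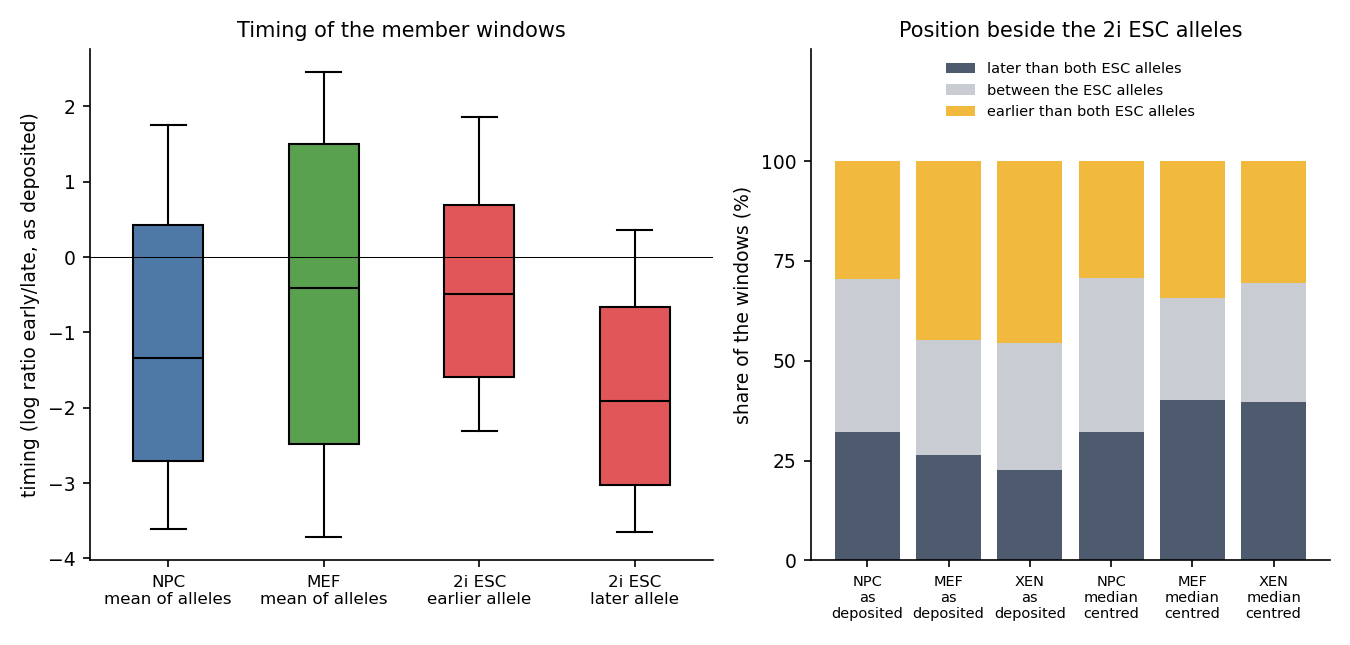
Left, timing of the 1024 windows (vertical axis, log ratio as deposited) as the mean of both copies in NPCs and MEFs and as each copy in 2i ESCs, with quartile boxes and whiskers between the 10th and 90th percentiles. Right, share of the windows (vertical axis, percent) in which the mean timing of NPCs, MEFs or XEN cells was later than, between or earlier than both ESC copies, as deposited and after median centring; NPCs keep 29.6% and 29.4% earlier than both, while MEFs have 44.9% as deposited and 34.3% after centring.

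V6.5 and XEN cells carry other pairs of strains, and each is 1 line, so their values are a description. In V6.5, where 129 was set against C57B, 95 selected windows (9.28%) had a difference of at least 0.5, against 3.68% of all windows. The other 2446 windows with an ESC difference of at least 1 had 10.9%, so the excess was not particular to the selected windows. The 129 allele was on the same side as in the hybrids with Cas in 78 (7.62%) and on the other side in 17 (1.66%). Over all windows these shares were 2.41% and 1.28%, and in the other 2446 they were 9.12% and 1.76%. Differences between the V6.5 alleles were small, with a median size of 0.0289 over all windows, below the 0.326 to 0.515 of single 2i ESC profiles of the hybrids, and how reads were given to these alleles is not given in the sources used here. The mean timing of V6.5 was nearer to the 129 copy of the hybrids than to the Cas copy in 720 windows (70.3%). V6.5 itself carries a 129 allele. The share over all windows was not computed, so it cannot be said whether 70.3% is particular to the selected windows. Where 129 was earlier, the V6.5 alleles had medians of -0.73 (129) and -0.81 (C57B), against -0.43 for 129 and -1.87 for Cas in the hybrids. Where Cas was earlier they had -1.78 and -1.63, against -1.96 and -0.57.

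In single runs V6.5 had 1.62 at the stretch on chromosome 13 from 78900001 (-1.36 for 129 and -2.98 for C57B), where the hybrids had 1.30 ± 0.55. It had -0.73 at Rab17, Prlh and Lrrfip1 and 0.48 at Eps8 and Ptpro, and -0.02 at Yipf7, Guf1 and Gnpda2, where both its alleles were late (-2.13 and -2.11). In XEN cells, where C57B6 was set against Cas, 36.5% of the selected windows had at least 0.5, against 32.8% of all windows. The other 2446 windows with an ESC difference of at least 1 had 40.4%. In the selected windows the C57B6 allele was on the side of 129 in 17.4% and on the other side in 19.1%. Over all windows these shares were 17.7% and 15.1%, and in the other 2446 they were 25.4% and 14.9%. Rab17, Prlh and Lrrfip1 were on the other side (1.33), and Eps8 and Ptpro had 0.37.

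Gene lists drawn up for these cell types were searched for starts in a selected window. The list of pluripotency genes had 1 of 14 (Zscan4c, 7.14%), fibroblast genes 1 of 13 (Vim, 7.69%), endoderm genes 1 of 12 (Cubn, 8.33%) and imprinted genes 1 of 27 (Slc22a3, 3.7%). Each of these shares rests on 1 gene of a short list. Neural genes (14 with a start in the table), genes of DNA replication (20), housekeeping genes (11), cadherins and other adhesion genes (30) and ion channels and receptors (31) had none. All protein-coding genes had 224 of 14572 (1.54%). Zscan4c, a gene of rare 2-cell-like ESCs in a cluster of near-identical copies, had -3.999 in F121-9 and -3.49 in Cas129 but -0.53 in F121, -0.38 in F121-6 and -0.89 in F123, so its mean of -1.86 rests on 2 lines, and the feeder difference was not called (-1.12 ± 0.67 SE, adjusted p = 0.253 by limma).

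At Vim the feeder lines had 1.69 each (1.69 ± 0.19 SE, adjusted p = 4.81e-05 by limma), NPCs had 0.13, MEFs 0.28 and the 5 ESC lines in 2i 1.33, 1.55, 1.33, 2.09 and 1.50. It was early in MEFs, with a timing of 2.95 ± 0.10 (SD, n = 4 embryos) against -0.75 ± 0.40 in ESCs (n = 5 lines), a change of 3.70 ± 0.22 (SE, adjusted p = 2.08e-10 by limma). Cubn, the endocytic receptor cubilin of endoderm and kidney, starts in a window 100 kb away, with 1.63 ± 0.44 between ESC copies and 4.42 ± 0.20 (SE, adjusted p = 9.05e-12 by limma) in timing of MEFs over ESCs. The feeder difference at Slc22a3 was -2.13 ± 0.28 (SE, adjusted p = 0.000124 by limma).

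Of gene families, olfactory receptors had 12 of 703 starts in selected windows (1.71%), which lie in 9 windows of chromosomes 7, 9 and 11. The 129 allele was earlier at all 12. Olfr853 (chr9:19500001-19550000) had 2.96 and 1.94 between ESC copies on feeders and 1.98 ± 0.50 in 2i, and also 1.17 between the V6.5 alleles. Olfr26 and Olfr926 share a window with 1.07 ± 0.32, while Olfr685 to Olfr688 on chromosome 7 (1.09 to 1.22) had no called feeder difference. Solute carriers had 7 of 277 (2.53%), among them Slc2a12 (-1.16 ± 0.14) and Slc2a13 (-1.85 ± 0.77), sugar transporter genes with an earlier Cas copy, and Slc28a3 (1.44 ± 0.19), a nucleoside transporter gene. Slc28a3 also had 2.77 between C57B6 and Cas in XEN cells, on the same side. Zfp genes had 5 of 325 (1.54%). Of these, Zfp454, Zfp2 and Zfp354b lie next to each other on chromosome 11 (1.25 each), in the same run as Olfr1377, Olfr1378 and Olfr51. They had no called feeder difference (0.22 at Zfp454, and 0.39 in the window of Zfp2 and Zfp354b). Zfp330 was called on feeders (1.51 ± 0.15 SE, adjusted p = 1.67e-05 by limma) beside 1.34 ± 0.20 in 2i. So was Zfp120 (0.79 ± 0.18 SE, adjusted p = 0.00507 by limma) beside 1.26 ± 0.38 in 2i. Keratins and keratin-associated genes had 2 of 89 (Krtap5-3 and Krtap5-5, in 1 window, -1.02 ± 0.36), vomeronasal receptors 1 of 199 (Vmn2r90, 1.00 ± 0.37) and cytochromes P450 1 of 78 (Cyp2b23, 1.18 ± 0.38). Defensins (29), serpins (51) and numbered cathepsins (6) had none. Olfactory receptors and other clustered families hold near-identical copies, where reads can be hard to place.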

How the data were processed

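Replication timing was measured by Repli-Seq in 54 libraries, an early and a late S phase fraction for each of 27 profiles. The deposited table holds 1 value per allele and profile for 46268 windows of 50 kb. Per the file headers and the labels' protocols, the authors computed these as log ratios of early to late signal, read here as log2 because the base of the logarithm is not given in the sources used here, so sizes depend on that reading and signs do not. The submitters' processing notes name mm10, Bowtie2, SAMtools and bedtools. How reads were given to alleles, scaled or smoothed is not given in the sources used here. The table holds no read counts, so depth is unknown and no counting interval is given.

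The allelic difference and the mean of both alleles were computed per profile and averaged per line or embryo. Tests used limma 3.58.1 in R 4.3.3 (lmFit, eBayes, two-sided, Benjamini-Hochberg over 43941 autosomal windows) on 1 value per line or embryo of the 129 and Cas hybrids, with groups for the 4 ESC lines of 1 cross in 2i, Cas129 in 2i, feeder ESCs, NPCs and MEFs sharing 1 estimate of the spread (2i lines form 1 group for timing). Calls needed an adjusted p under 0.05 and a size of at least 0.5 between alleles or 1 in timing. The script was tested on simulated data. Nothing says that profiles of a line are separate thaws, and p-values measure the spread between these lines and embryos. Windows next to each other are not independent.

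Named are, in each direction, the 8 runs of at least 3 windows with the largest mean ESC difference, the 4 with the most windows, the 4 with the largest timing change in NPCs and in MEFs, the single largest window, and every gene of the lists with a start in a selected window. Each run has up to 3 protein-coding genes, those nearest its window of largest difference. Of the runs this rule gives, 2 are not reported here. The windows, lists and tests were chosen with earlier results of these data known. Names, starts and promoters come from RefSeq tables of GRCm38.p6, matched by symbol.

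Replicate numbers did not pair profiles of different groups (66 correlations between -0.071 and 0.039). Alternatives were column centring, quantile normalization, each line or embryo left out, embryos 1 and 3 left out, a replicate block, the line as a covariate, other limits and no minimum size.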

Additional observations from a re-analysis of the deposited data

Results flagged for a closer look

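At the named runs, 8 of 132 sets of line or embryo values (6.06%) had 1 value standing apart from the rest, where the 95% limit of the test used (Dixon) lets about 1 in 20 stand apart by chance. Allelic differences in MEFs stood apart at Kcnt2, where embryo 3 had 0.67 and the other embryos 0.12 to 0.21, at the stretch on chromosome 9 from 116200001, where embryo 1 had 0.24 and the others -0.08 to -0.04, and at Col4a3, Col4a4 and Mff, where embryo 4 had 0.13 and the others -0.22 to -0.17. The mean of the 4 embryos at Kcnt2 was 0.30. Between ESC copies, F123 had 2.08 at St8sia6, Vim and Trdmt1, with 1.21 to 1.39 in the other 4 lines, and Cas129 had 1.39 at Lonrf2, Chst10 and Nms, with 1.71 to 1.77 in the others. ESC timing stood apart in F121-6 at Msrb3 and Lemd3 (2.01, others 0.80 to 0.98). MEF timing stood apart in embryo 4 at the stretch on chromosome 2 from 178600001 (-2.42, others -2.77 to -2.72) and in embryo 1 at Ccn4, Ndrg1 and Tg (3.09, others 3.38 to 3.43). Embryos 1 and 3 are those whose X tracks go against their sex labels.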

How the results depend on the processing

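The number of selected windows followed its limits. It was 1809 at an ESC minimum of 0.8, 598 at 1.2 and 525 at an NPC and MEF limit of 0.2. Centring the columns gave 984 windows, 845 of them among the 1024, and quantile normalization gave 1044, with 868 shared. Leaving out 1 line or embryo gave 961 to 1092 selected windows. With the windows held fixed, such omissions gave 663 to 810 called in feeder ESCs (663 without F121-9 on feeders), 0 by cross, 223 to 240 later and 198 to 214 earlier in NPCs, and 195 to 223 later and 391 to 401 earlier in MEFs, all within 1.5 times the reported counts. A fit of single profiles with a replicate block gave 830 called in feeder ESCs and 1 by cross (chr18:14900001-14950000). The cross contrast in that window was 1.69 in this fit and 1.67 in the fit of line values. The fit of profiles counts profiles of 1 line as separate samples, and Cas129 is 1 line. Its p-values therefore do not measure the spread between lines, and replicate numbers do not pair the samples. Without a minimum size, 312 windows were earlier in NPCs and 335 later in MEFs. After median centring 351 were later in MEFs. Of the feeder differences of named runs, 2 changed sign, Prr5l, Commd9 and Traf6 (between -0.17 and 0.0492 with 1 feeder line left out) and Usp47 and Dkk3 (between -0.35 and 0.67), both without F121-9, which leaves 1 feeder line. The cause of these changes was not tested. Depth is unknown, so it cannot be said which windows rest on few reads. The rule selects windows of small NPC and MEF means, which a mean of opposite lines can also give, and 4 embryos, 2 NPC lines and 2 feeder lines limit the precision.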

Other observations

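Some runs selected on the mean of 5 lines varied widely between these lines, as singled out after their values were seen. At Klf12, a Krüppel-like factor gene (chr14:100050001-100200000), the feeder lines had -0.06 and 0.20, against -1.02 in F121, -2.59 in F121-6, -1.11 in F121-9, 0.10 in F123 and -0.80 in Cas129 in 2i. Robo2, a receptor of axon guidance (chr16:74500001-74650000), had -1.37 and -0.12 on feeders, against -1.50, -3.29, -1.28, -0.21 and -0.91 in 2i in the same order. Grik2, a kainate receptor gene (chr10:48950001-49100000), had -0.37 and 0.72 on feeders, against 1.34, 1.88, 1.12, 1.36 and 0.20 in 2i, with the lowest value in Cas129. In Antxr2, an anthrax toxin receptor gene (chr5:97650001-97900000), F121-6 had -0.08 on feeders and -0.84 in 2i, where the other lines had -2.26 to -1.60. All 5 lines thus had the Cas allele earlier there in 2i. These runs, of 3, 3, 3 and 5 windows, were taken from the 20 runs without a window called on feeders. The lack of feeder calls in them was therefore fixed by that choice.

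The V6.5 alleles correlated at 0.996 across all autosomal windows and at 0.983 across the selected ones, while single 2i profiles of the hybrids had 0.933 to 0.968 across all windows and 0.562 to 0.679 across the selected ones. Across the selected windows NPC profiles had 0.971 to 0.991 and MEF profiles 0.987 to 0.992. Windows are not independent, and the hybrids' ESC, NPC and MEF values at these windows were part of the selection.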
